A study of Arabidopsis thaliana with 14 samples.

Results

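Plastid-encoded transcripts are the RNAs made inside the chloroplast from its own genome. Affymetrix ATH1 arrays of Arabidopsis thaliana seedlings measured 69 of them, each through a probe set that the platform annotation gives to exactly 1 gene of the chloroplast genome, out of 22746 probe sets tested. The members were 15 genes of photosystem II, 5 of photosystem I, 6 of the cytochrome b6f complex, 6 of ATP synthase, 1 of Rubisco, 10 of the NADH dehydrogenase-like (NDH) complex, 4 of the plastid RNA polymerase, 8 of the small and 7 of the large ribosomal subunit, and 7 with other roles. A further 8 plastid probe sets, of 7 genes that the genome holds in more than 1 copy (rps12, rpl2, rpl23, ycf2, ndhB, rps7 and ycf1), were left out by that rule.

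The chloroplast genome keeps core subunits of the photosynthetic complexes, while the nucleus encodes the remaining subunits and nearly all regulators. A bacterial-type plastid-encoded RNA polymerase, built from the rpo gene products and guided by nuclear sigma factors, reads most photosynthesis genes in green tissue. A phage-type nuclear-encoded polymerase reads the rpo genes themselves and some housekeeping genes. Many plastid genes are transcribed together in long clusters and are then cut and processed, so neighbours often share a primary transcript. Plastid mRNAs mostly lack the long poly(A) tails on which the usual labelling reaction for 3′ arrays starts, so their signal can depend on how the RNA was primed and how intact it was.

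The study compared mutants of the COP9 signalosome, a complex that removes the ubiquitin-like protein NEDD8 from cullin ubiquitin ligases, with wild types. All seedlings were 12 days old and harvested whole from agar plates under 16 h of light and 8 h of darkness. The groups were csn5a-1, a mutant of the gene CSN5A for the catalytic subunit, with Columbia as its wild type (3 biological replicates each), and CSN8 + DTT, CSN8, Wassilewskija + DTT and Wassilewskija (2 arrays each, 1 in batch 1 and 1 in batch 2). CSN8 stands in the labels for a mutant of that subunit, whose own accession background the labels do not name, and the dose and duration of DTT are not given. CSN5A and CSN8 had no probe set annotated to 1 gene, so neither mutant label could be set against the level of its own gene here. Whether the arrays of the batch-labelled groups came from separate cultures is not stated, so p-values there measure the spread between arrays, which may be technical.

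Values are log2 levels made by the authors with RMA, which corrects background, makes the distributions of arrays equal and summarises the probes of a probe set. A difference of 1 is a doubling, differences are mutant minus wild type or DTT minus no DTT, and levels of different probe sets cannot be compared. Differences carry the standard error (SE) of limma, and a gene passed the test at an adjusted p (Benjamini-Hochberg over all 22746 probe sets) below 0.05. The csn5a-1 and Columbia arrays and the other 8 arrays had been normalised as separate sets, so effects were always taken within a set, and the 2 effects were then compared across sets. In whole seedlings, fewer chloroplast-bearing cells or plastids and less RNA in each of them cannot be told apart.

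The plastid transcripts were uneven between arrays of the same group. The median level of the 69 genes was 9.91, 8.77 and 8.09 in the 3 csn5a-1 arrays, against 9.65, 9.70 and 9.57 in the 3 Columbia arrays. The Columbia arrays lay within 0.13 of each other at most, while csn5a-1 array 1 stood above and csn5a-1 arrays 2 and 3 below all of them. In csn5a-1 array 1, 67 of 69 members lay above the mean of the other 2 csn5a-1 arrays, and 38 did so by more than 1, compared with 2.55% of all probe sets. In the other set the medians were 8.29 and 7.98 in CSN8 + DTT, 8.83 and 8.46 in CSN8, 8.22 and 7.96 in Wassilewskija + DTT, and 8.27 and 7.81 in Wassilewskija. Both CSN8 arrays without DTT lay above the 6 other arrays of their set, and array 1 of that group held the highest value of 43 of the 69 genes. The highest and lowest arrays of each gene are visible in the map of levels by array.

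**Figure D1:**
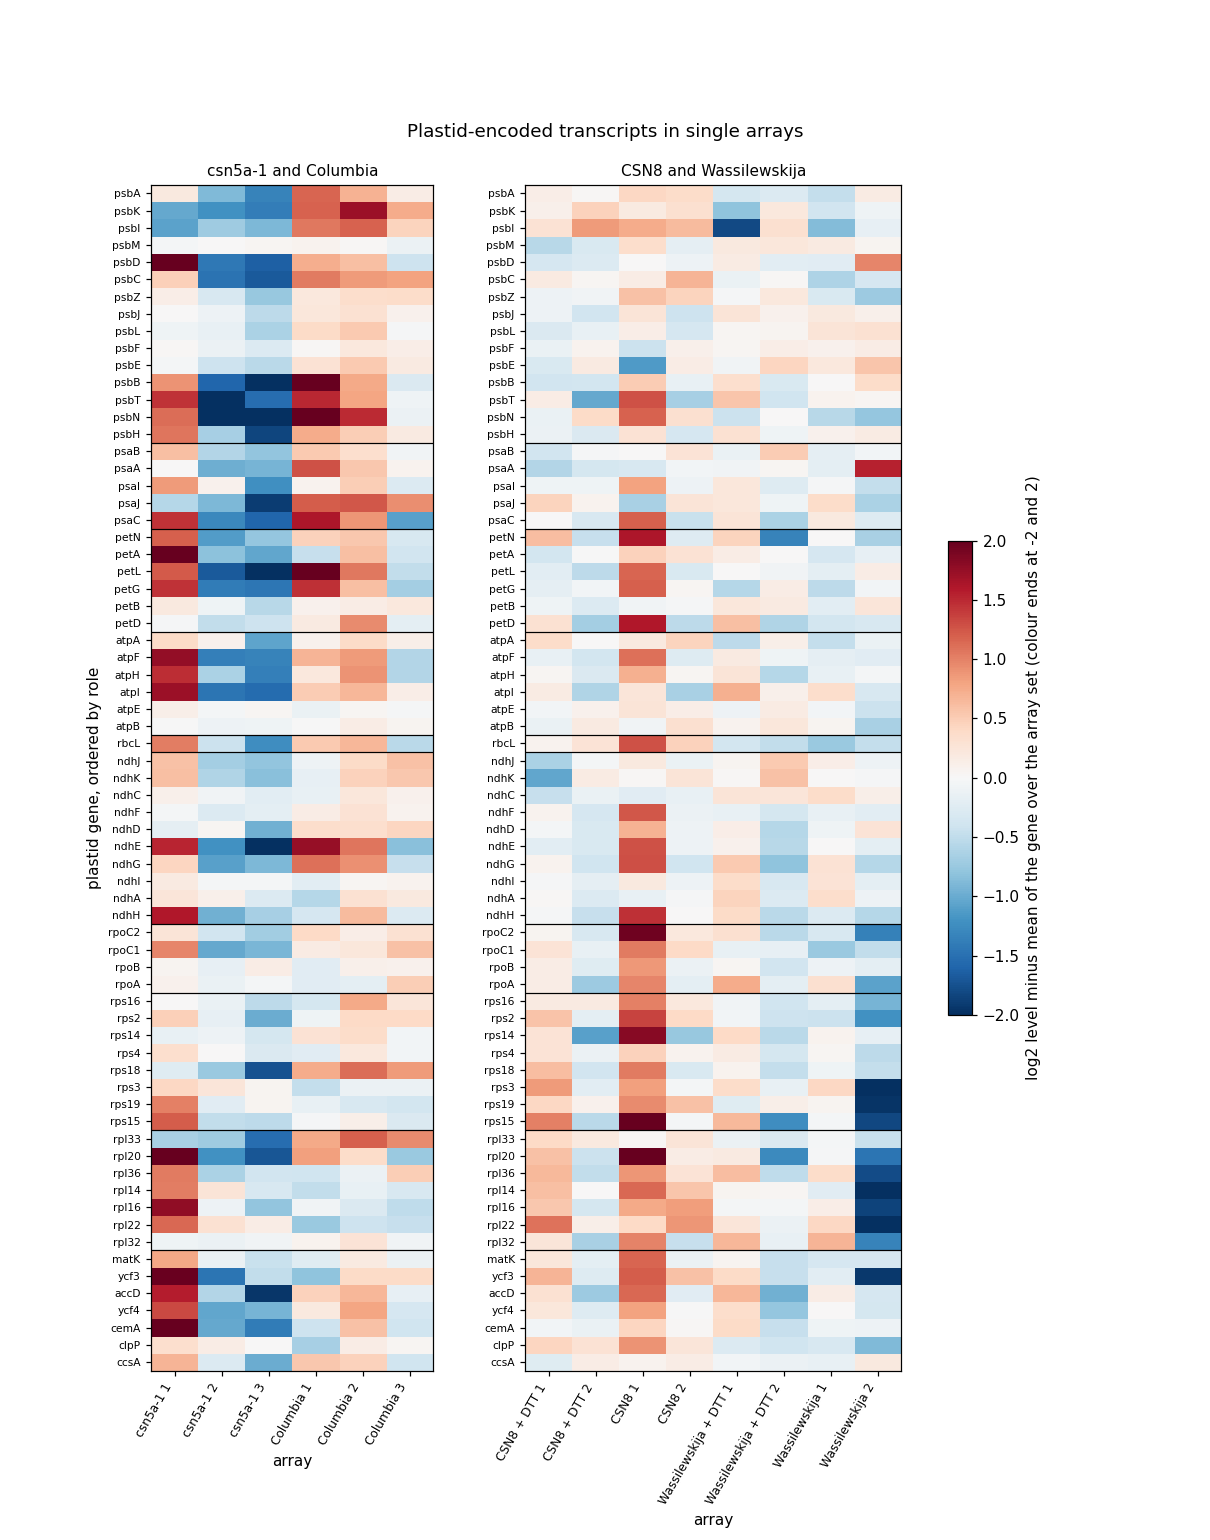
Log2 level of each of the 69 plastid genes (rows, ordered by role) in each array (columns), minus the mean of that gene over its array set, with colours ending at -2 and 2. csn5a-1 array 1 is high across most roles where csn5a-1 arrays 2 and 3 are low, CSN8 array 1 is high in most genes, and Wassilewskija array 2 is low in ribosomal protein genes.

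Control probe sets differed between the same groups. The 3′ minus 5′ difference of the actin control, which grows when RNA is fragmented or labelling stops early, was 2.64, 2.36 and 1.85 in csn5a-1, against 0.94, 1.21 and 0.99 in Columbia. The 25S rRNA control read 11.38, 10.99 and 10.65 in csn5a-1, against 9.70, 9.12 and 9.32 in Columbia. In both controls every csn5a-1 array lay above every Columbia array, and array 1, the highest in plastid transcripts, was the highest of the 3. Both controls and the median plastid level fell in the same order over the csn5a-1 arrays, from array 1 to array 3. In Columbia, array 2 had the highest median plastid level and the highest actin difference but the lowest 25S value. Arrays 2 and 3 of csn5a-1 were also above Columbia in both controls, but below it in median plastid level. The 3′ minus 5′ differences of the other two controls of this kind overlapped between the groups, at 0.43 to 0.50 in csn5a-1 and 0.38 to 0.55 in Columbia for GAPDH, and 0.33 to 0.49 in csn5a-1 and 0.44 to 0.57 in Columbia for ubiquitin. In the other set the actin difference was 1.65 and 1.76 in CSN8 + DTT, 2.81 and 1.68 in CSN8, 1.40 and 1.56 in Wassilewskija + DTT, and 1.49 and 1.99 in Wassilewskija. There too CSN8 array 1, the highest in plastid transcripts, had the largest actin difference. Its GAPDH difference of 0.34 was also the largest of its set, where the others ran from -0.11 to 0.25. Its ubiquitin difference of 0.08 was below only that of Wassilewskija array 2, at 0.13. In CSN8 + DTT, Wassilewskija + DTT and Wassilewskija the actin order was the other way. In each of them the array with the larger actin difference had the lower median plastid level. The 25S rRNA control was 12.22 and 11.63 in CSN8 + DTT and 12.47 and 11.53 in CSN8, above 10.82 and 10.38 in Wassilewskija + DTT and 10.15 and 9.91 in Wassilewskija. In each of these groups the array with the higher 25S value also had the higher median plastid level. The part of RNA quality or priming in the plastid differences was not tested.

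**Figure D2:**
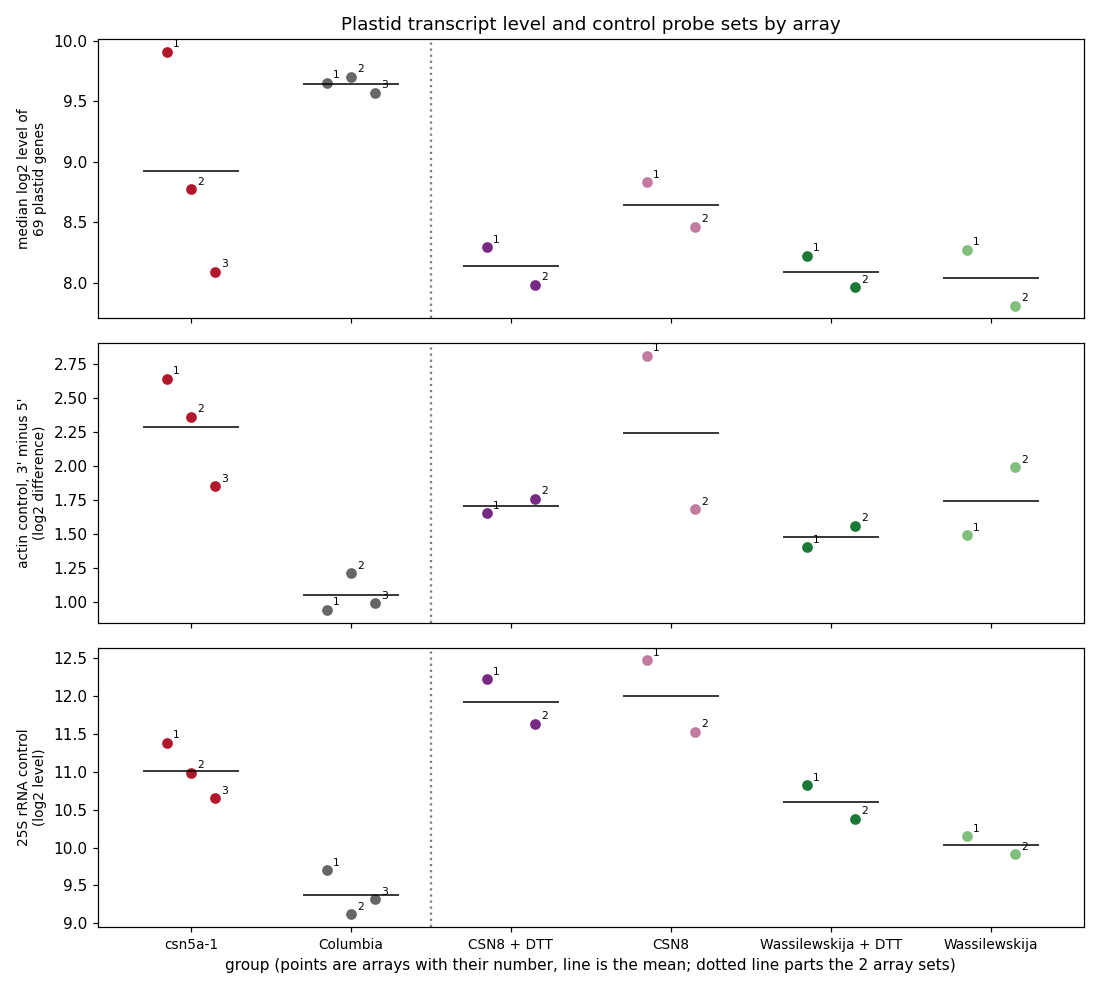
For each array (points, numbered by replicate; lines are group means), the median log2 level of the 69 plastid genes, the 3′ minus 5′ log2 difference of the actin control and the log2 level of the 25S rRNA control, with the 2 separately normalised sets parted by a dotted line. The csn5a-1 medians run from 8.09 to 9.91 around the Columbia medians of 9.57 to 9.70, and both controls are higher in every csn5a-1 array than in every Columbia array.

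csn5a-1 against Columbia asks how loss of this subunit gene goes with plastid RNA. Of the 69 plastid genes, 10 fell and 2 rose, and 57 did not pass the test. Over all probe sets tested, 32.9% passed (16.0% higher and 16.8% lower), which is the share to set beside 12 of 69. Their median change was -0.44, against -0.04 over all probe sets, 51 of 69 differences were negative, and 19 members had an unadjusted p below 0.05, beside 43.2% of all probe sets. The genes that fell encode photosystem II and photosystem I subunits, an NDH subunit and a pair of ribosomal proteins, and the genes that rose encode ribosomal proteins. The arrays of the 2 groups did not overlap for 18 members, compared with 48.8% of all probe sets.

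Photosystem II splits water, and 5 of its 15 measured plastid genes fell and none rose, with a median change of -0.95. psbK and psbI encode small membrane subunits of the photosystem II core. psbK was 9.79, 9.60 and 9.43 in csn5a-1, against 11.99, 12.53 and 11.55 in Columbia. psbI was 9.91, 10.27 and 10.09 in csn5a-1, against 12.04, 12.16 and 11.42 in Columbia. For both genes all csn5a-1 arrays lay far below all Columbia arrays, and the 3 csn5a-1 arrays lay close together. The difference was -2.42 ± 0.24 for psbK (SE, adjusted p = 0.000334 with limma, n = 3 each), the largest fall of any member, and -1.78 ± 0.21 for psbI (adjusted p = 0.000647).

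psbC, for the antenna protein CP43, was 9.24, 7.29 and 7.09 in csn5a-1, against 9.81, 9.62 and 9.57 in Columbia. The groups did not overlap, but array 1 stood close to Columbia and arrays 2 and 3 were more than 2 lower, giving a difference of -1.79 ± 0.51 (adjusted p = 0.0316 with limma). psbA, for the rapidly replaced D1 reaction centre protein, was 9.52, 8.45 and 8.00 in csn5a-1, against 10.50, 10.02 and 9.48 in Columbia. Here csn5a-1 array 1 lay just above the lowest Columbia array, and the difference was -1.35 ± 0.40 (adjusted p = 0.0381 with limma). psbE, for a cytochrome b559 subunit, fell by 0.65 (SE 0.16, adjusted p = 0.0187 with limma), with 11.28, 10.91 and 10.78 in csn5a-1 below 11.60, 11.84 and 11.49 in Columbia, but relative to the median plastid gene of each array it differed by 0.07.

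psbB, for the antenna protein CP47, and psbD, for the reaction centre protein D2, did not pass. psbB was 6.65, 4.17 and 3.60 in csn5a-1 and 8.13, 6.52 and 5.47 in Columbia, a difference of -1.90 ± 0.89 (adjusted p = 0.146 with limma). psbD was 8.38, 4.79 and 4.59 in csn5a-1 and 6.95, 6.82 and 5.80 in Columbia, so that csn5a-1 array 1 lay above and arrays 2 and 3 below every Columbia array. psbN, needed for assembly of the photosystem, differed by -2.37 ± 0.98 without passing (adjusted p = 0.107), with 8.16, 4.57 and 4.82 in csn5a-1 and 9.22, 8.52 and 6.92 in Columbia. The genes psbD and psbC overlap on the genome, as do ndhC and ndhK and atpB and atpE, and psbN lies opposite the psbB cluster, so their signals may be shared. psbM, for a small core subunit, differed by 0.01 ± 0.10, and its 6 values lay between 13.09 and 13.27.

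In photosystem I, which passes electrons to ferredoxin, 2 of 5 plastid genes fell and the median change was -0.94. psaJ, for a small subunit, was 9.10, 8.77 and 7.78 in csn5a-1, against 10.88, 10.91 and 10.60 in Columbia. All 3 csn5a-1 arrays were at least 1 below Columbia, a difference of -2.25 ± 0.31 (adjusted p = 0.00149 with limma). psaA, for a reaction centre protein, was 5.04, 4.05 and 4.10 in csn5a-1, against 6.30, 5.56 and 5.10 in Columbia. Its groups nearly touched at csn5a-1 array 1 and Columbia array 3, and the difference was -1.25 ± 0.36 (adjusted p = 0.0317 with limma). psaB, its partner in the reaction centre, did not pass (13.05, 11.86 and 11.66 in csn5a-1, 12.97, 12.79 and 12.38 in Columbia, adjusted p = 0.302).

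None of the 6 cytochrome b6f genes, 6 ATP synthase genes or rbcL passed, and none of these 13 genes reached an unadjusted p below 0.05. Their median changes were -0.54, -0.36 and -0.44. petB, for cytochrome b6, was 12.36, 12.08 and 11.62 in csn5a-1 and 12.26, 12.32 and 12.39 in Columbia. atpB, for the catalytic beta subunit of ATP synthase, was 13.18, 13.09 and 13.10 in csn5a-1 and 13.18, 13.33 and 13.24 in Columbia. Both genes overlapped between the groups, with differences of -0.30 ± 0.19 and -0.13 ± 0.10. rbcL, for the large subunit of the CO2-fixing enzyme Rubisco, was 12.37, 10.92 and 10.11 in csn5a-1, around 11.88, 12.01 and 10.82 in Columbia. Array 1 of csn5a-1 was the highest and array 3 the lowest of all 6 for rbcL (-0.44 ± 0.56, adjusted p = 0.597 with limma).

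The NDH complex carries electrons back from photosystem I into the plastoquinone pool, and 1 of its 10 measured plastid genes fell. ndhD was 6.90, 7.12 and 6.12 in csn5a-1, against 7.44, 7.43 and 7.51 in Columbia, a difference of -0.75 ± 0.24 with groups that did not overlap (adjusted p = 0.0484 with limma). ndhH was 5.88, 3.31 and 3.61 in csn5a-1 and between 3.94 and 4.91 in Columbia, again with csn5a-1 array 1 above and the others below all Columbia arrays. ndhF was 3.08, 2.85 and 2.92 in csn5a-1 and 3.27, 3.40 and 3.18 in Columbia. It did not overlap between the groups, yet it did not pass (-0.33 ± 0.12, adjusted p = 0.0612), and it lay in the lowest 25% of probe sets on all 6 arrays.

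No gene of the plastid RNA polymerase passed, with a median change of -0.31 over 4 genes and 1 of them, rpoC2, at an unadjusted p below 0.05. rpoA, for the alpha subunit, was 11.76, 11.55 and 11.65 in csn5a-1 and 11.46, 11.49 and 12.18 in Columbia. rpoB, for the beta subunit, was 3.05, 2.84 and 3.15 in csn5a-1 and 2.77, 3.10 and 3.09 in Columbia, also in the lowest 25% of probe sets on all 6 arrays. rpoC1, for the beta-prime subunit, was 8.58, 6.58 and 6.70 in csn5a-1 and 7.77, 7.84 and 8.19 in Columbia. The groups overlapped for all 3 of these genes. For rpoC1 arrays 2 and 3 of csn5a-1 lay about 1 below every Columbia array, and array 1 above all of them (-0.64 ± 0.49, adjusted p = 0.363).

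Ribosomal protein genes went both ways. Of 15, 2 fell and 2 rose, and the median change was 0.02, against -0.62 over the 33 photosystem, cytochrome b6f, ATP synthase and Rubisco genes, of which 7 fell and none rose. rpl33, for a large-subunit protein, was 10, 9.94 and 9.13 in csn5a-1, against 11.41, 11.85 and 11.60 in Columbia. rps18, for a small-subunit protein, was 9.93, 9.43 and 8.42 in csn5a-1, against 10.91, 11.28 and 11.02 in Columbia. Every csn5a-1 array was below every Columbia array for both, with differences of -1.93 ± 0.24 for rpl33 (adjusted p = 0.000977 with limma) and -1.81 ± 0.35 for rps18 (adjusted p = 0.00612).

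rpl22, for a large-subunit protein, was 11.54, 10.69 and 10.54 in csn5a-1, against 9.65, 9.97 and 9.92 in Columbia. rps3, for a small-subunit protein, was 11.81, 11.65 and 11.45 in csn5a-1, against 10.92, 11.29 and 11.29 in Columbia. All csn5a-1 arrays were above all Columbia arrays for both, and the rises were 1.07 ± 0.26 (adjusted p = 0.0156 with limma) and 0.47 ± 0.15 (adjusted p = 0.0464). Their neighbours rpl14, rpl16 and rps19 differed by 0.64 ± 0.31, 0.59 ± 0.58 and 0.55 ± 0.29 and did not pass (adjusted p = 0.153, 0.48 and 0.188).

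**Figure D3:**
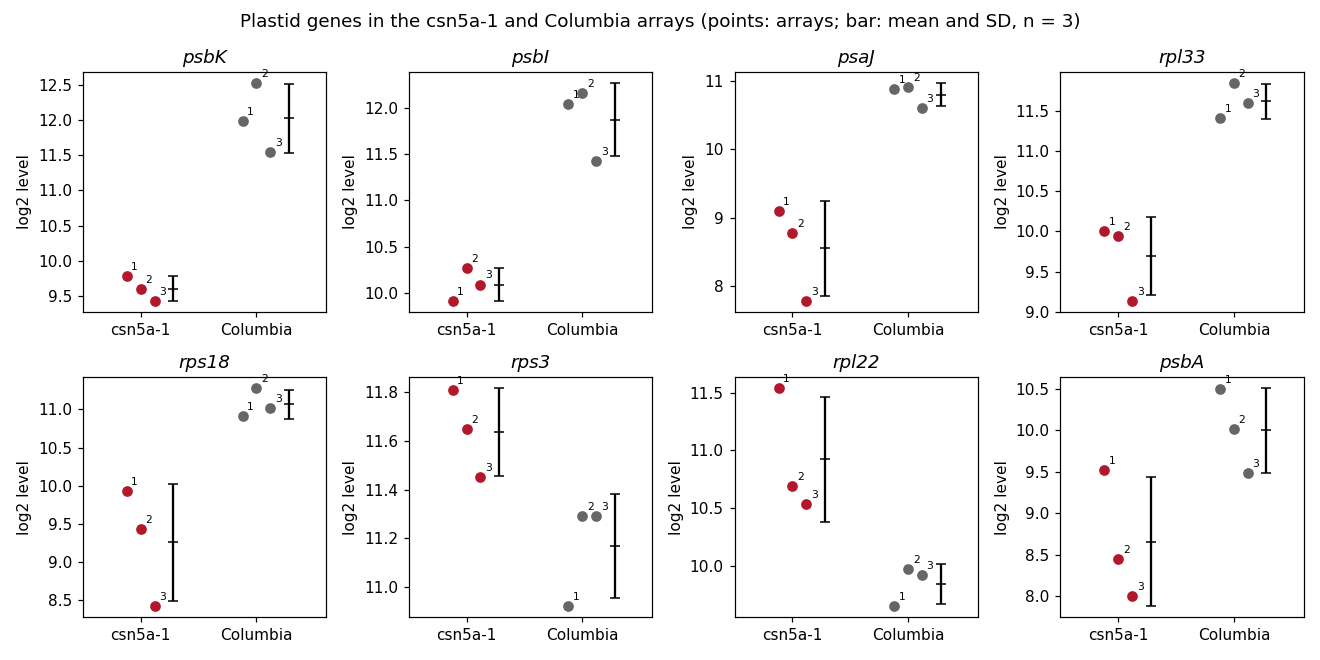
Log2 level of 8 plastid genes in each csn5a-1 and Columbia array (points, numbered by replicate), with the mean and SD of 3 arrays beside them. psbK, psbI, psaJ, rpl33 and rps18 are lower and rps3 and rpl22 higher in every csn5a-1 array than in every Columbia array, while psbA overlaps at csn5a-1 array 1.

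Among the 7 other genes none passed and none had an unadjusted p below 0.05 with limma. accD, for a subunit of the plastid acetyl-CoA carboxylase of fatty acid synthesis, was 8.95, 6.79 and 5.44 in csn5a-1, around 7.84, 8.04 and 7.21 in Columbia. clpP, for the catalytic subunit of the plastid Clp protease, was 11.96, 11.77 and 11.63 in csn5a-1 and 10.97, 11.78 and 11.66 in Columbia. matK, for a splicing maturase, was 11.64, 10.74 and 10.43 in csn5a-1 and 10.63, 11.05 and 10.75 in Columbia. In all 3 genes csn5a-1 array 1 was the highest of the 6 arrays.

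Several genes past the threshold lie side by side on the chloroplast genome. psbK and psbI are neighbours, as are psaJ, rpl33 and rps18, and rps3 and rpl22, runs that were picked out after their values were seen. Over all 68 pairs of neighbouring members, changes differed by a median of 0.43, against 0.63 over all 2346 pairs. Within the psbE-psbF-psbL-psbJ cluster of photosystem II genes the changes ran from -0.65 to -0.25. All 4 genes had groups that did not overlap, beside 48.8% of all probe sets. For psbF the groups touched at the printed precision, with 12.06 in both csn5a-1 array 1 and Columbia array 1. Within the psbB-psbT-psbH-petB-petD cluster they ran from -1.90 to -0.30 with none past the threshold. The 10 genes known for promoters of the plastid-encoded polymerase had a median change of -0.63 with 4 lower, and the 4 measured genes of nuclear-encoded polymerase promoters (accD, rpoB, rpoC1 and rpoC2) had a median of -0.60 with none passing.

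**Figure D4:**
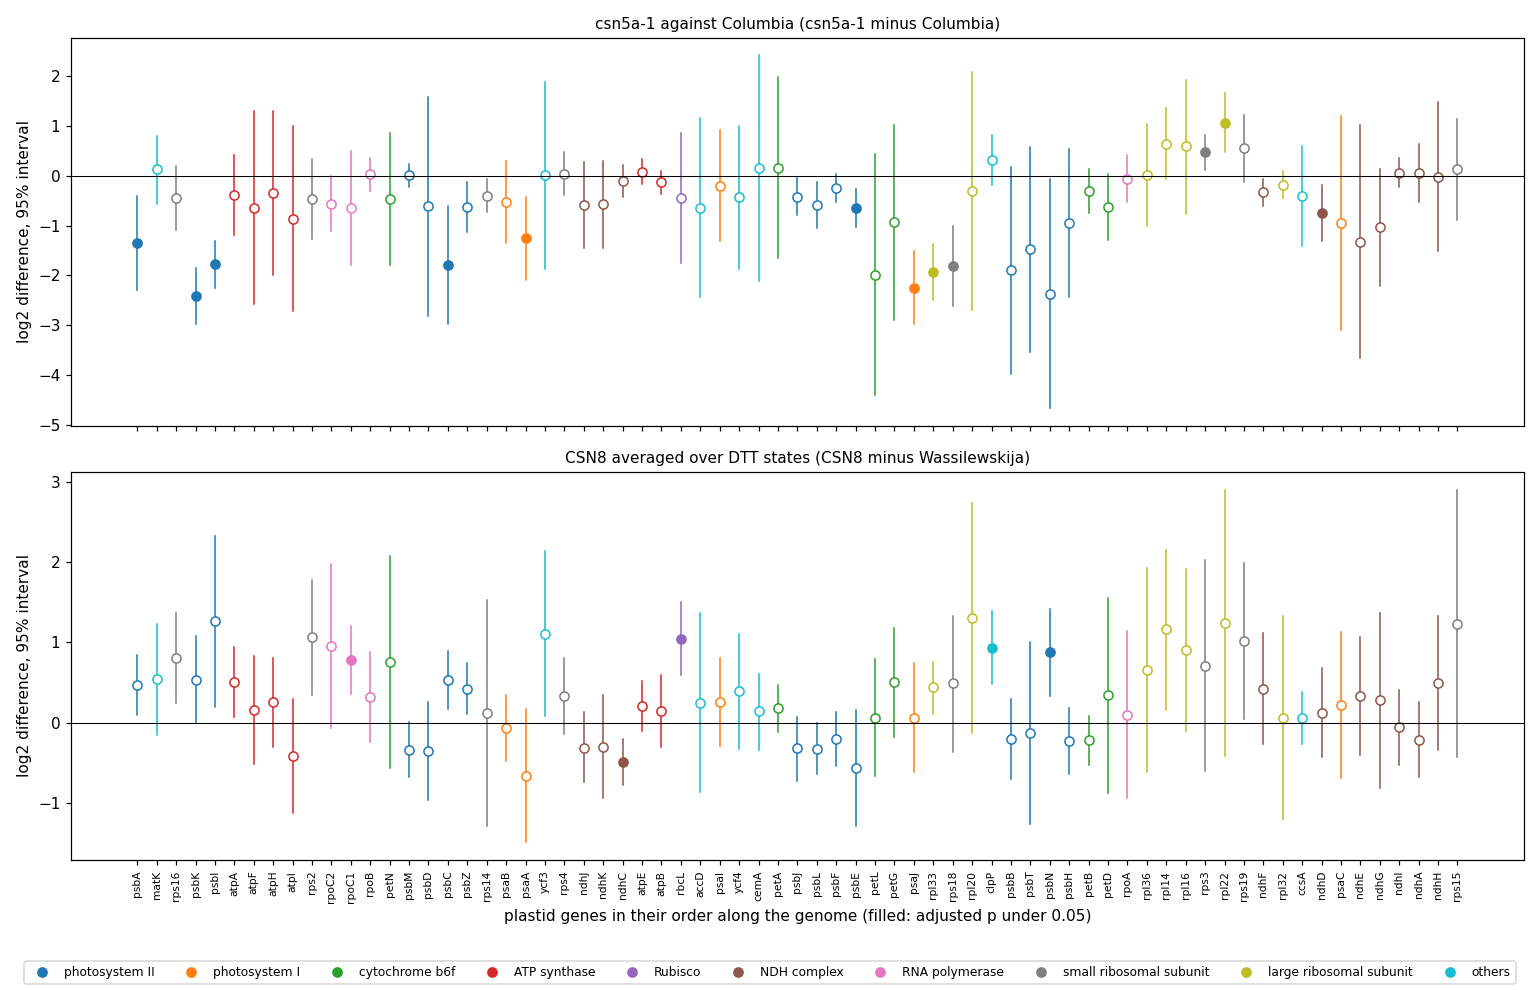
Log2 difference of each of the 69 plastid genes with its 95% interval, in the order of the genes along the chloroplast genome and coloured by role, for csn5a-1 minus Columbia (above) and CSN8 minus Wassilewskija averaged over DTT states (below); filled points passed the test. In csn5a-1 the filled points include falls at psbK and psbI and at psaJ, rpl33 and rps18, and rises at rps3 and rpl22; open points such as psbN (-2.37) lie as low, with wider intervals.

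csn5a-1 array 1 decided how many genes passed. Set singly against the Columbia mean, array 1 had 44 plastid genes higher and 25 lower with a median of 0.26, array 2 had 10 higher and 59 lower with a median of -0.73, and array 3 had 8 higher and 61 lower with a median of -1.07. Without array 1, 36 genes were lower and 1 higher, beside 16.0% of all probe sets lower and 15.7% higher (31.7% in all), and the median was -0.84. The 36 were 13 of 15 photosystem II genes, 3 of 5 photosystem I genes, 3 cytochrome b6f genes, 2 ATP synthase genes, 6 NDH genes, 2 polymerase genes, 2 small-subunit and 2 large-subunit ribosomal protein genes, and 3 of the other genes. This alternative was read with array 1 known to stand apart. psbK, psbI, psaJ, rpl33 and rps18 passed in all 6 fits that left out 1 array each. The count ranged from 6 without Columbia array 2, beside 23.8% of all probe sets, to 37 without csn5a-1 array 1, beside 31.7%. It was 7 without Columbia array 1, beside 29.2% of all probe sets, and 7 without csn5a-1 array 2, beside 24.3%. When each level was taken relative to the median plastid gene of its array, 5 members were lower (psbK, psbC, psaJ, rpl33 and rps18) and 7 higher (matK, rpl14, rpl16, rps3, rpl22, rps19 and rps15). Of all probe sets, 32.9% passed in that fit. The median plastid level averaged 8.92 in csn5a-1 and 9.64 in Columbia, so this setting moves members of unchanged level upward in csn5a-1. The group means were 10.94 and 10.81 for matK and 6.57 and 6.44 for rps15 before it.

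Of 33 nuclear genes listed for the same complexes 8 were measured, with a median level of 12.11 to 12.22 in csn5a-1 and 12.26 to 12.45 in Columbia. Differences were negative for 7 of the 8, with a median of -0.20. Of these 8, 2 fell in csn5a-1, beside 16.8% of all probe sets lower. They were the NDH gene NDHN (-1.04 ± 0.16, adjusted p = 0.00261 with limma) and the photosystem II gene PSBY (-0.47 ± 0.11, adjusted p = 0.0157). RPOTmp, a phage-type polymerase of mitochondria and plastids and the only measured gene of 8 sigma factors and polymerases listed, fell by 0.39 (SE 0.10, adjusted p = 0.0241). Of 18 mitochondrial-genome probe sets, whose RNAs also lack stable poly(A) tails, 5 from 4 genes fell and none rose, beside 16.8% of all probe sets lower, with a median of -0.33.

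CSN8 against Wassilewskija without DTT gave positive differences in most plastid genes. Here 54 of 69 differences were positive with a median of 0.57, against 0.02 over all probe sets, but 3 genes rose and none fell, beside 2.84% of all probe sets higher, 2.99% lower and 5.83% in either direction. An unadjusted p below 0.05 was reached by 17 members, beside 21.4% of all probe sets, and the groups did not overlap for 34 members, beside 47.7%. The genes that rose were rbcL, rpoC1 and psbZ. With the labels' batch as a block, 15 plastid genes were higher and none lower, beside 11.9% of all probe sets, namely rps16, rps2, rpoC2, rpoC1, psbC, psbZ, ycf3, rbcL, rpl20, clpP, psbN, rpoA, rpl14, ndhH and rps15. Within batch 1 the median change was 0.80 and within batch 2 it was 0.29, and 43 genes were higher in CSN8 in both batches and 6 lower in both, beside 33.7% and 29.0% of all probe sets.

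rbcL was 10.52 and 9.71 in CSN8, against 8.50 and 8.77 in Wassilewskija. Both mutant arrays were higher than both wild-type arrays, in batch 1 by 2.02 and in batch 2 by 0.94, and the difference was 1.48 ± 0.27 (adjusted p = 0.0292 with limma, n = 2 each). rpoC1 was 8.87 and 8.24 in CSN8, against 7.09 and 7.34 in Wassilewskija (1.34 ± 0.25, adjusted p = 0.0311). psbZ, for a small subunit that joins photosystem II with its antenna, was 10.73 and 10.58 in CSN8, against 9.83 and 9.41 in Wassilewskija (1.03 ± 0.19, adjusted p = 0.0284). None of these 3 calls held in all 8 fits that left out 1 array each. Each of those fits leaves 1 array in a group, so their counts are not given. Relative to the median plastid gene of each array none of the 3 passed, and 1 other gene, psbJ, was lower, beside 5.83% of all probe sets passing.

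The ribosomal protein genes had a median of 1.29 without DTT over 15 genes that were all positive, and none of them passed. The large-subunit genes had a median change of 0.52 within batch 1 and 2.07 within batch 2, and Wassilewskija array 2 stood apart in them. Its large-subunit genes lay a median of 2.00 and its small-subunit genes a median of 0.76 below Wassilewskija array 1. rpl14 was 8.78 and 8.19 in CSN8, against 7.41 and 5.45 in Wassilewskija (2.05 ± 0.59, adjusted p = 0.0974 with limma), and within batches it differed by 1.37 and 2.74. rpl22 was 10.15 and 10.63 in CSN8, against 10.16 and 6.73 in Wassilewskija, and differed within batches by -0.01 and 3.90. The run rpl36, rpl14, rpl16, rps3, rpl22 and rps19 was lowest in Wassilewskija array 2 for each gene, with rps3 at 8.38 there against 10.84 in array 1. The 4 polymerase genes were positive in both batches, with batch medians of 1.38 and 0.88, and rpoC2 was 8.83 and 7.10 in CSN8, against 6.56 and 5.54 in Wassilewskija.

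Photosystem II genes were divided, with 7 positive and 8 negative differences and a median of -0.02. psbA was 11.93 and 11.87 in CSN8, against 11.03 and 11.68 in Wassilewskija (0.54 ± 0.22, adjusted p = 0.214). psbB was 6.77 and 6.12 in CSN8 and 6.27 and 6.64 in Wassilewskija, and psbD was 5.45 and 5.34 in CSN8 and 5.21 and 6.42 in Wassilewskija. These 2 genes overlapped between the groups. psaA was 4.11 and 4.38 in CSN8 and 4.24 and 5.98 in Wassilewskija, and psaB 11.71 and 11.97 in CSN8, against 11.52 and 11.65 in Wassilewskija. Neither photosystem I gene passed, with adjusted p = 0.386 and 0.644 (limma).

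With DTT in both genotypes the plastid genes showed no common direction. CSN8 + DTT against Wassilewskija + DTT had 34 positive and 35 negative differences, a median of -0.01 and no member past the threshold in limma, beside 4.13% of all probe sets, with 5 members at an unadjusted p below 0.05, beside 18.8%. The closest were ndhC (10.23 and 10.56 in CSN8 + DTT, against 10.94 and 10.93 in Wassilewskija + DTT, -0.54 ± 0.17, adjusted p = 0.147) and psbM (11.67 and 11.92 in CSN8 + DTT, against 12.42 and 12.45 in Wassilewskija + DTT, -0.64 ± 0.21, adjusted p = 0.153). With the batch as a block 1 gene, atpI, was lower, beside 8.99% of all probe sets passing in either direction.

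Averaged over both DTT states, CSN8 had 4 plastid genes higher and 1 lower than Wassilewskija, beside 7.40% of all probe sets higher and 7.48% lower (14.9% in all). This average shares its arrays with the comparisons at each DTT state. The median change was 0.28, 51 of 69 were positive, 17 members had an unadjusted p below 0.05, beside 29.8% of all probe sets, and the groups did not overlap for 7, beside 20.4%. With the batch as a block 13 were higher and 2 lower, beside 22.2% of all probe sets. rbcL rose by 1.04 ± 0.19 (adjusted p = 0.0147 with limma), with 9.32 and 9.52 in CSN8 + DTT above 8.87 and 8.75 in Wassilewskija + DTT. clpP rose by 0.93 ± 0.19 (adjusted p = 0.0219), with 12.27 and 12.14 in CSN8 + DTT and 12.74 and 12.09 in CSN8, against 11.57 and 11.45 in Wassilewskija + DTT and 11.53 and 10.96 in Wassilewskija. All 4 mutant arrays were above all 4 wild-type arrays for rbcL and for clpP, and within batches clpP differed by 0.95 and 0.91.

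rpoC1 rose by 0.78 ± 0.18 (adjusted p = 0.0298 with limma), although CSN8 + DTT at 8.11 and 7.68 barely cleared Wassilewskija + DTT at 7.68 and 7.67. psbN rose by 0.88 ± 0.23 (adjusted p = 0.047) with overlap, at 7.17 and 7.68 in CSN8 + DTT and 8.47 and 7.62 in CSN8, against 6.87 and 7.31 in Wassilewskija + DTT and 6.74 and 6.52 in Wassilewskija. ndhC fell by 0.49 (SE 0.12, adjusted p = 0.0397), with 10.46 and 10.54 in CSN8 below 11.06 and 10.80 in Wassilewskija, and was lower within batches by -0.66 and -0.32. No member passed in all 8 fits that left out 1 array each. Each of those fits leaves 1 array in a group, so their counts are not given. Relative to the median plastid gene of each array 2 were higher and 6 lower, beside 14.9% of all probe sets passing. Of these, clpP and ndhC were shared, and rbcL, rpoC1 and psbN did not pass.

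**Figure D5:**
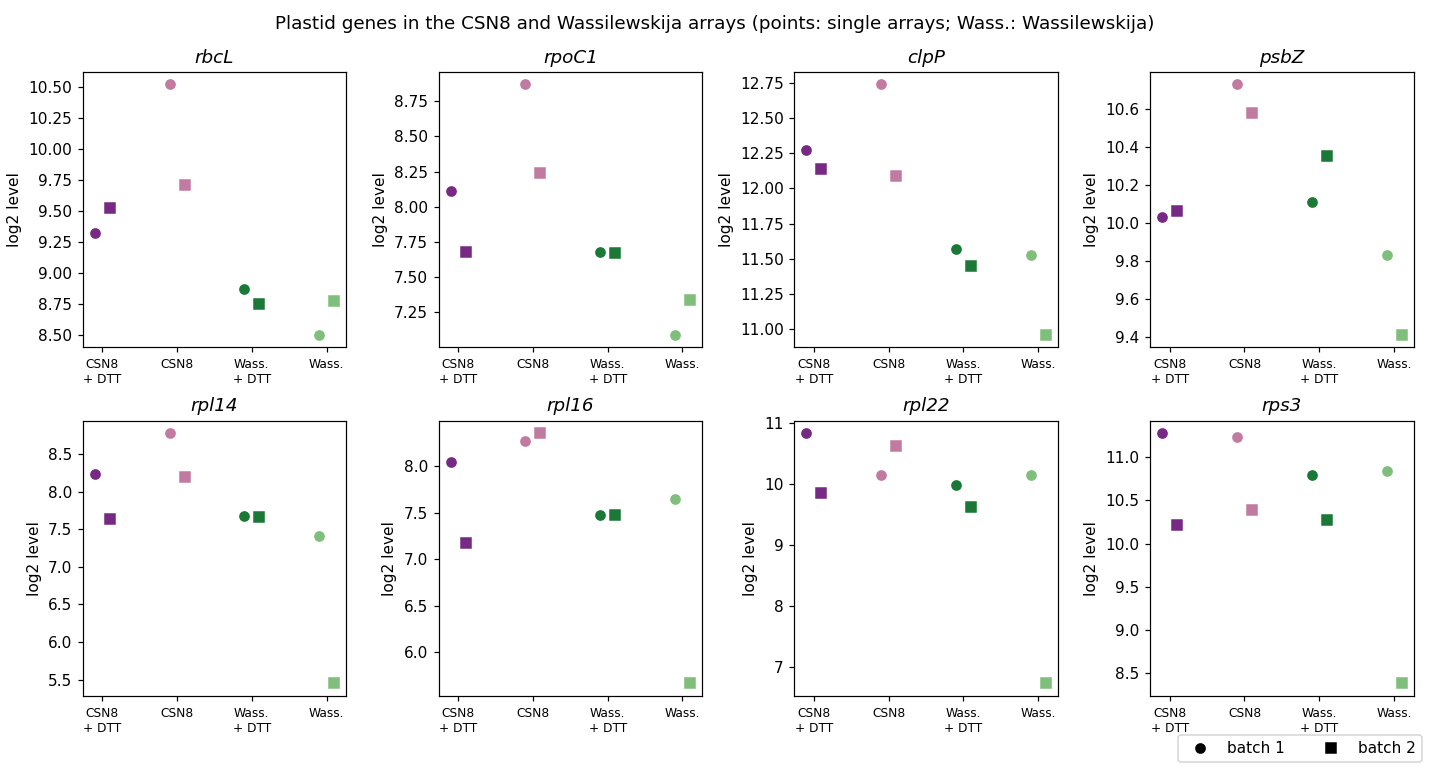
Log2 level of 8 plastid genes in each CSN8 and Wassilewskija array with and without DTT (circles batch 1, squares batch 2). rbcL and clpP are higher in all 4 CSN8 arrays than in all 4 Wassilewskija arrays, and Wassilewskija array 2 is the lowest array for rpl14, rpl16, rpl22 and rps3.

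The other genes with values fixed for naming did not pass in the average. atpB differed by 0.15 ± 0.19, petB by -0.22 ± 0.13, ndhH by 0.49 ± 0.35 and ndhF by 0.42 ± 0.29. matK differed by 0.54 ± 0.29, accD by 0.25 ± 0.47, rpoA by 0.10 ± 0.44 and rpoB by 0.32 ± 0.24. The 15 ribosomal protein genes were all positive again with a median of 0.80. Of the 8 nuclear subunit genes 2 fell, beside 7.48% of all probe sets lower, and 7 of the 8 differences were negative. The 2 that fell were PSAN (-0.97 ± 0.22, adjusted p = 0.0284 with limma) and PSAE1 (-0.47 ± 0.11, adjusted p = 0.0374), both of photosystem I. None of the 18 mitochondrial probe sets passed (1 at an unadjusted p below 0.05).

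DTT gave no plastid gene past the threshold in limma in any comparison. In CSN8, 64 of 69 differences were negative with a median of -0.47 and 5 at an unadjusted p below 0.05, beside 1.29% of all probe sets past the threshold and 11.3% at an unadjusted p below 0.05. The median was -0.58 within batch 1 and -0.19 within batch 2, and 46 genes were lower and 1 higher in both batches, beside 31.4% and 31.6% of all probe sets. rbcL was 9.32 and 9.52 in CSN8 + DTT, against 10.52 and 9.71 in CSN8 (-0.69 ± 0.27, adjusted p = 0.396). psbZ was 10.03 and 10.06 in CSN8 + DTT, below 10.73 and 10.58 in CSN8 (-0.61 ± 0.19, adjusted p = 0.246), and petA, for cytochrome f, was 9.35 and 9.71 in CSN8 + DTT, below 10.18 and 10.01 in CSN8 (-0.57 ± 0.18, adjusted p = 0.259). All 10 NDH genes, 6 cytochrome b6f genes and 6 ATP synthase genes had negative differences.

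In Wassilewskija, 45 of 69 differences with DTT were positive with a median of 0.14 and 1 member (psbZ) at an unadjusted p below 0.05, beside 0.365% of all probe sets past the threshold and 6.52% at an unadjusted p below 0.05. The 15 ribosomal protein genes had a median of 0.59, with Wassilewskija array 2 again the low array. psbZ was 10.11 and 10.35 in Wassilewskija + DTT, above 9.83 and 9.41 in Wassilewskija (0.61 ± 0.19, adjusted p = 0.476 with limma). Averaged over genotypes the median was -0.09, with none past the threshold in limma and none at an unadjusted p below 0.05, beside 2.34% of all probe sets past the threshold and 13.9% at an unadjusted p below 0.05. Without Wassilewskija array 1, psaA was lower.

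The DTT effect in CSN8 minus that in Wassilewskija was negative for 59 of 69 plastid genes, with a median of -0.62 (-0.86 within batch 1 and -0.22 within batch 2). It shares the 2 CSN8 arrays without DTT, the highest of their set in median plastid level, with 2 comparisons above. These are CSN8 against Wassilewskija without DTT and DTT in CSN8, so their directions are not separate results. No member passed in limma, and no probe set of the array did, so the percentage past the threshold was 0. An unadjusted p below 0.05 was reached by 3 members, beside 2.91% of all probe sets, and these were psbZ (-1.22 ± 0.27), petA (-0.89 ± 0.25) and rpoC1 (-1.12 ± 0.35). For psbZ the 2 CSN8 arrays without DTT and the 2 Wassilewskija arrays without DTT were the extremes, and the DTT arrays of both genotypes lay between them.

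The difference between the mutant effects, csn5a-1 minus Columbia set against CSN8 minus Wassilewskija without DTT, was tested over all 14 arrays with each effect taken inside its own array set. Its CSN8 side rests on the same CSN8 and Wassilewskija arrays as the comparison without DTT, and its csn5a-1 side on those of csn5a-1 against Columbia. The difference was negative for 63 of 69 plastid genes with a median of -1.01, and 11 passed, all lower in csn5a-1, beside 9.49% of all probe sets lower, 8.08% higher and 17.6% in either direction. An unadjusted p below 0.05 was reached by 16, beside 30.9%. The 11 were psbA, psbK, psbI, psbC and psbZ of photosystem II, psaJ of photosystem I, rpoC2 of the polymerase, and rps2, rps16, rps18 and rpl33 of the ribosome. For psbK the effect was -2.42 ± 0.24 in csn5a-1 and 0.49 ± 0.33 in CSN8, a difference of -2.91 ± 0.43 (adjusted p = 0.00108 with limma). For rpl33 it was -1.93 ± 0.24 in csn5a-1 and 0.38 ± 0.19 in CSN8, a difference of -2.31 ± 0.35 (adjusted p = 0.00122). For psbZ it was -0.62 ± 0.21 in csn5a-1, which did not pass by itself, and 1.03 ± 0.19 in CSN8, a difference of -1.66 ± 0.31 (adjusted p = 0.00403).

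These 3 genes passed in all 14 fits that left out 1 array each, but relative to the median plastid gene of each array none of the 11 passed and ndhC was higher. The count of 11 became 19 with the replicate and batch numbers as a block, beside 20.7% of all probe sets. It was 23 without csn5a-1 array 1, beside 14.3%, and 7 without csn5a-1 array 2 or Columbia array 2, beside 13.9% and 13.2%. Leaving out an array of the batch-labelled groups leaves 1 array in a group, so those counts are not given. psbE, psbL, psbJ and psbF, neighbours in a photosystem II cluster, had negative changes in both mutants: psbE differed by -0.65 ± 0.16 in csn5a-1 and -0.87 ± 0.43 in CSN8, and psbL by -0.59 ± 0.20 in csn5a-1 and -0.39 ± 0.19 in CSN8, and of these 4 changes psbE in csn5a-1 passed. The rpoC2 difference of -2.47 ± 0.67 joined a csn5a-1 effect of -0.56 ± 0.23 to a CSN8 effect of 1.92 ± 0.61, neither of which passed by itself.

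The rank of each plastid gene within an array, given as the percentage of probe sets below it, allows a description across the array sets without a test. The median rank of the 69 genes was 94.2, 86.5 and 79.2 in csn5a-1 and 92.4, 92.8 and 91.9 in Columbia. It was 86.4 and 83.5 in CSN8 + DTT, 90.7 and 87.9 in CSN8, 85.7 and 83.4 in Wassilewskija + DTT, and 86.1 and 82.0 in Wassilewskija. Single members ranked anywhere from the bottom to the top of an array. Both Wassilewskija arrays without DTT ranked higher than all 3 Columbia arrays for 6 members (psbA, rpoB, ycf4, cemA, psbF and ndhD) and lower for 33, with overlap for 30, beside 31.3% of all probe sets higher, 31.3% lower and 37.4% with overlap. ndhD ranked at 94.8 and 96.1 in Wassilewskija, against 70.3, 69.8 and 70.7 in Columbia, and psbA at 98.2 and 99.1 in Wassilewskija, against 96.2, 94.5 and 91.5 in Columbia. The accession and the array set cannot be told apart in these ranks.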

How the data were processed

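Total RNA of whole seedlings was hybridised to Affymetrix ATH1 arrays, and the deposited log2 values are RMA summaries of probe sets, per the submitters' processing notes. For the RMA software, its version is not given in the sources used here. The sorted values of any 2 csn5a-1 or Columbia arrays lay 0.016 to 0.0758 apart at the median, those of any 2 of the other 8 arrays 0.0117 to 0.0537, and those from both sets 0.472 to 0.534, so each mutant effect was taken inside a set; 1 test compares the csn5a-1 and CSN8 effects across sets.

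Of 22810 probe sets, 64 controls were left out. The platform annotation named exactly 1 gene for 13513, of which 13436 matched a RefSeq gene table by gene ID, all 69 plastid genes among them. Gene order came from that table.

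Group means over all 22746 probe sets were compared by limma 3.58.1 under R 4.3.3 with moderated two-sided tests and Benjamini-Hochberg adjustment. The 8 CSN8 and Wassilewskija arrays shared 1 estimate of the spread. The fit was also run on simulated data with independent noise in each probe set and array. Those data held no batch, no deviation shared by members and no outlying array, so the run cannot show how the fit handles these. The number of arrays limits precision: the median half-width of a member's 95% interval was 0.81 for csn5a-1 against Columbia and 0.91 for groups of 2.

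Same-numbered csn5a-1 and Columbia arrays did not all deviate together (correlations 0.04, 0.07 and 0.05 over all probe sets; 0.50, -0.25 and 0.61 over the plastid genes), so their numbers were not taken as pairs. The batch of the other groups is a label, and its same-batch correlations were 0.07 to 0.57 over all probe sets and 0.16 to 0.73 over the plastid genes. Same-batch arrays thus deviated together in these genes to differing degrees, least for CSN8 with Wassilewskija at 0.16. With 2 arrays per group the deviations of batch 2 mirror those of batch 1, so each correlation is the same in both batches. The main fits did not use the batch, and fits with it as a block are given as alternatives. No 2 arrays of a group held identical values. Alternatives were median centring, quantile normalisation, a filter on dim probe sets, trend and robust variance, the block, within-batch values, leaving out each array and, chosen after seeing the data, levels relative to the median plastid gene of each array. That last setting shifts every member by the plastid median of its array, so a member of unchanged level moves when that median differs.

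Members, roles, clusters, promoter classes and nuclear lists were chosen with earlier results of these data known, and promoter classes and clusters come from general knowledge. The naming rule took, per comparison and role, the largest rise and fall that passed without overlap between groups, up to 1 more each way, or else the smallest p, plus a set of well-known genes; other members were named from their counts. None of 12 polymerase-associated proteins listed, and 1 of 8 sigma factors and polymerases, had a single-gene probe set.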

Additional observations from a re-analysis of the deposited data

Results flagged for a closer look

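In a test of the difference between the 2 mutant effects (limma over all 14 arrays), 11 of 69 plastid genes passed, each with a lower change in csn5a-1 than in CSN8 without DTT, beside 17.6% of all probe sets in either direction and 9.49% lower. The differences were -2.99 for psbI, -2.91 for psbK, -2.67 for psbC, -1.89 for psbA and -1.66 for psbZ in photosystem II, and -2.19 for psaJ in photosystem I. They were -2.47 for rpoC2, -2.47 for rps18, -2.31 for rpl33, -2.17 for rps2 and -1.61 for rps16. The count was 23 without csn5a-1 array 1, the array with the highest plastid level of its set, beside 14.3% of all probe sets. When levels were taken relative to the median plastid gene of each array, none of these 11 passed and 1 other gene, ndhC, was higher, beside 17.5% of all probe sets. The part of RNA quality, priming, accession and array set in these differences was not tested.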

How the results depend on the processing

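Counts of plastid genes past the threshold were compared over the alternatives. For CSN8 against Wassilewskija the count of 3 became 6 with the filter on dim probe sets, 6 with trend and robust variance, 15 with the replicate block and 1 relative to the median plastid gene (psbJ, lower, with none of the 3 shared). In the same order, 9.37%, 6.01%, 11.9% and 5.83% of all probe sets tested passed. For CSN8 + DTT against Wassilewskija + DTT the count of 0 became 1 with the block, beside 8.99% of all probe sets. For CSN8 averaged over DTT states the count of 5 became 15 with the block, beside 22.2% of all probe sets. It became 8 relative to the median plastid gene (2 higher and 6 lower, 2 shared), beside 14.9%. For the csn5a-1 effect minus the CSN8 effect the count of 11 became 19 with the block, beside 20.7% of all probe sets, and 1 relative to the median plastid gene, beside 17.5%. For csn5a-1 against Columbia, where the numbers do not pair the arrays, the count of 12 became 16 with the replicate block, 10 genes being shared, beside 30.4% of all probe sets. It was 12 relative to the median plastid gene, 7 being shared, beside 32.9%, and there psbE reversed to 0.07. The block moved no other count by over 1.5 times. Leaving out 1 array gave 6 to 37 for csn5a-1 against Columbia. The share of all probe sets passing was 23.8% at the lowest count, without Columbia array 2. It was 31.7% at the highest count, without csn5a-1 array 1. In the main fit it was 32.9%, beside a count of 12, so the rise to 37 came without a rise in that share. For the csn5a-1 effect minus the CSN8 effect, the count rose from 11 to 23 without csn5a-1 array 1. The share fell there from 17.6% to 14.3%. Without csn5a-1 array 2 or Columbia array 2 that count was 7, beside 13.9% and 13.2%. In the CSN8 and Wassilewskija groups such a fit leaves 1 array in a group, so those counts are not listed here. The causes were not tested, except that leaving out an array also lowers the samples behind the spread. Within a batch each group has 1 array, so those settings give values without a test.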
